A study of Mus musculus with 36 samples.

Results

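The comparison is between mouse multipotent progenitors (MPP) after 24 h of TGF-β1 and MPP after 12 h of TGF-β1, the last step of a time course. It rests on 6 of 36 arrays, 3 at 24 h and 3 at 12 h, found by the cell type and time in their sample labels. Both groups were grown from mouse bone marrow in a cytokine cocktail, sorted by FACS and given 10 ng/ml recombinant human TGF-β1, so the 12 h cells carry the treatment too. No strain, sex or age of the mice is given in the labels. The other arrays are MPP at 0, 2, 4 and 8 h and, at the same 6 times, common dendritic cell progenitors (CDP), a later stage limited to the dendritic lineage, with 3 biological replicates per group by the study's account. No untreated array at 12 or 24 h was analysed here, so time in culture and exposure to TGF-β1 cannot be told apart. The levels are log2 intensities of Affymetrix Mouse Gene 1.0 ST arrays, and a difference of 1 is a 2-fold change.

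TGF-β1 is a secreted ligand that binds a pair of receptor kinases, which phosphorylate Smad2 and Smad3. These enter the nucleus with Smad4 and act on target genes, several of which (Smad7, Skil, Ski and Pmepa1) restrain the pathway in turn. In blood formation TGF-β1 is known for holding progenitors back from division, for its part in mast cell differentiation and for being required to form Langerhans cells, which are dendritic cells found in the outer skin. Langerhans cells hold on to skin cells through E-cadherin, and CD103, the integrin chain encoded by Itgae, binds E-cadherin.

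The array levels of Kit, Flt3 and Cd34 fitted the label of a blood progenitor, though genes of myeloid cells were high as well. The mean of 21 neutrophil granule genes lay between 10.99 and 11.76 on the 6 arrays. Kit, the stem cell factor receptor, was between 11.05 and 11.25 at 24 h and between 11.19 and 11.44 at 12 h. Flt3, a cytokine receptor of multipotent and dendritic progenitors, was between 11.18 and 11.70 at 24 h and between 11.26 and 11.70 at 12 h, and Cd34 was near 13.7 in both groups. Csf1r and Irf8 were taken as markers of CDP, with Flt3 and Kit. At 24 h Csf1r averaged 12.73 in MPP and 12.45 in CDP, and Irf8 12.95 and 12.49. Flt3 averaged 11.42 and 13.02, and Kit 11.16 and 11.42. At 12 h Csf1r averaged 12.99 in MPP and 12.93 in CDP, and Irf8 12.96 and 13.15. None of Kit, Flt3, Cd34, Ptprc, Myb, Sox4, Lmo2 and Runx1 passed the test, and the largest shift among them was 0.14 for Sox4. The lowest correlation between arrays of a group was 0.99742 at 24 h and 0.99488 at 12 h. MPP 12 h replicate 2 stood apart in inflammatory genes, as given below.

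Of 19938 genes tested, 14 were called between 24 h and 12 h, that is, with an adjusted p under 0.01 in limma and a log2 change of at least 1 (0.0702%). Of these, 9 were higher at 24 h (0.0451%) and 5 were lower (0.0251%). With the adjusted p alone, 79 genes were higher (0.396%) and 108 lower (0.542%). Whatever the p, 10096 genes had a positive change and 9842 a negative one. The genes that rose most encode surface and junction proteins, led by the tight junction gene Cldn1 and the integrin gene Itgae, and the called falls are the acute phase gene Saa3 and surface proteins of myeloid cells. The 3 arrays at 24 h did not overlap those at 12 h in 14 of the 14 called genes, against 15.5% of all genes (8.54% with 24 h above and 6.95% with 24 h below). The called genes were chosen on these same arrays, so this adds no support for the calls. A log2 change of 1 or more without a call was seen in 11 genes, of which 10 were lower at 24 h. The replicate number was kept as a block, because same-numbered arrays deviated together. Without it 5 genes were called, and all 5 were among the 9 higher ones.

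**Figure D1:**
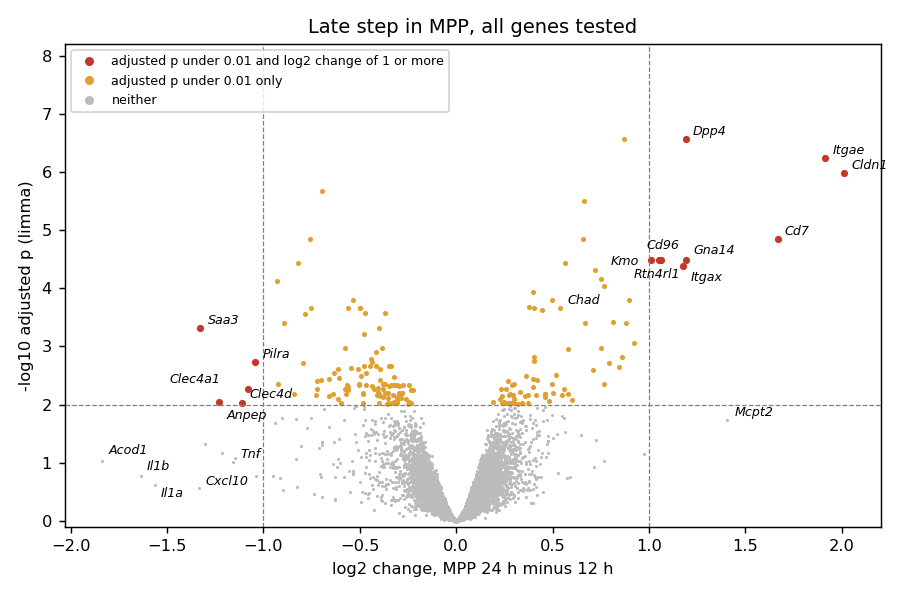
Log2 change of each gene tested (x axis, MPP 24 h minus 12 h) against −log10 of its adjusted p in limma (y axis). The dashed lines mark the thresholds, and the 9 called rises lie to the right while Acod1, Il1b, Il1a and Cxcl10 on the left have large changes below the line.

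Cldn1, Itgae and Itgax, which serve cell contact, were among the called rises. Cldn1, a claudin of tight junctions, had levels of 9.03, 8.39 and 8.77 at 24 h, against 6.66, 6.70 and 6.81 at 12 h. All 12 h arrays lay at the low end of the scale and close together, and every 24 h array was well above them. Its change was 2.01 ± 0.13 (SE), a 4.03-fold rise, with an adjusted p of 1.03e-06 in limma. Itgae was at 11.002, 10.34 and 10.41 at 24 h, against 8.64, 8.60 and 8.77 at 12 h, a rise of 1.91 ± 0.12 (3.77-fold, adjusted p = 5.71e-07). The integrin gene Itgax, which encodes the dendritic cell marker CD11c, had 10.38, 9.81 and 9.71 at 24 h, against 9.14, 8.75 and 8.48 at 12 h (1.18 ± 0.11, adjusted p = 4.18e-05). Replicate 1 was the highest array in both groups for Itgax, and the groups did not overlap. Itgae and Itgax were the only 2 of 18 leukocyte integrin genes that passed the test, where 0.938% of all genes passed. The median of the 18 was −0.04, against 0.00 for all genes tested. Itgb7, the chain that pairs with Itgae, changed by −0.14 (adjusted p = 0.565). Cdh1, the gene of E-cadherin, rose by 0.77 ± 0.13 (adjusted p = 0.00441), with 8.69, 8.46 and 8.14 at 24 h and 7.56, 7.74 and 7.69 at 12 h, but its adjusted p was over 0.01 in 4 of the 9 fits with a replicate left out.

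The promoters of 3 called genes are shown, Cldn1 and Itgax among the rising genes and Saa3 as the gene with the largest called fall, so that the letters behind the motif counts can be seen. Each is the 300 bases around the gene's RefSeq start (GRCm38.p6), and capitals mark every match, on either strand, to the Smad core CAGAC, the AP-1 site TGANTCA, the E-box CACGTG or the GATA spelling AGATAA. The Cldn1 promoter lies at chr16:26371790-26372089 on the minus strand, that of Itgax at chr7:128129300-128129599 on the plus strand and that of Saa3 at chr7:46715627-46715926 on the minus strand.
Cldn1: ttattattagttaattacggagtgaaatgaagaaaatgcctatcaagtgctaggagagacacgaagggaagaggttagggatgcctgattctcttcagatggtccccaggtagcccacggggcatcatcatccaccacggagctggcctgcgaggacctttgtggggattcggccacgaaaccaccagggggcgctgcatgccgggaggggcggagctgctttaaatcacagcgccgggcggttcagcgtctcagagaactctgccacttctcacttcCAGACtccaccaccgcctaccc
Itgax: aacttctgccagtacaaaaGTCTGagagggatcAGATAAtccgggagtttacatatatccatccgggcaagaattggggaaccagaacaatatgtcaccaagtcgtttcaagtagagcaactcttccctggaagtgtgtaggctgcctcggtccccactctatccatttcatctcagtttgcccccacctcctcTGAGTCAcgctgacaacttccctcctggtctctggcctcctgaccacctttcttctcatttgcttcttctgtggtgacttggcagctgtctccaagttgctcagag
Saa3: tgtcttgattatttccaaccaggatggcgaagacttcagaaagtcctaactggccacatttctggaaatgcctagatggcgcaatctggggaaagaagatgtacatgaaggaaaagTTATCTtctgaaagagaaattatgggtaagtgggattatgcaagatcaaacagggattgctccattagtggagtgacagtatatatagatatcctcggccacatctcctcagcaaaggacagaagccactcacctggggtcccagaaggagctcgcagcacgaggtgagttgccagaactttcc
Cldn1 holds 1 CAGAC, Itgax holds 1 CAGAC, 1 AP-1 and 1 GATA match, and Saa3 holds 1 GATA match and no Smad core. The Smad core stood in 6 of the 6 called rising genes with a promoter sequence and in 1 of the 5 called falling genes. Its share was 48.6% of the 15614 promoters of all genes tested. The other called rises, Itgae, Cd7 and Rtn4rl1, had no promoter sequence here. Over the larger groups with the adjusted p alone the shares were 56.5% of 62 rising and 43.2% of 88 falling genes. AP-1 matches stood in 6.45% of the rising and 6.82% of the falling genes, against 6.98% of all. E-box matches stood in 11.3% of the rising and 6.82% of the falling genes, against 8.38% of all, and GATA matches in 12.9% and 11.4%, against 9.55% of all. These are descriptions of letters in a window and no test was made.

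Other surface proteins and enzymes made up the rest of the called rises. Cd7, an immunoglobulin-type receptor of T cells, NK cells and early progenitors, had 9.80, 9.03 and 9.17 at 24 h, against 7.83, 7.63 and 7.52 at 12 h, a rise of 1.67 ± 0.14 (3.17-fold, adjusted p = 1.4e-05). Dpp4, the surface peptidase CD26, had 9.31, 8.82 and 8.47 at 24 h, against 8.14, 7.595 and 7.30 at 12 h. The replicates kept the same order in both groups, so that its change of 1.19 ± 0.069 had the smallest adjusted p of the called genes (2.68e-07 in limma). Cd96, a receptor of T and NK cells that binds nectin-type ligands, had 11.78, 11.31 and 11.41 at 24 h, against 10.59, 10.48 and 10.23 at 12 h (1.06 ± 0.10, adjusted p = 3.2e-05). Gna14, an alpha subunit of Gq-class G proteins, rose by 1.19 ± 0.11 and Rtn4rl1, a homologue of the Nogo receptor, by 1.05 ± 0.10 (adjusted p = 3.2e-05 each). Kmo, which encodes kynurenine 3-monooxygenase of tryptophan breakdown, had 10.18, 10.19 and 9.59 at 24 h, against 9.18, 9.05 and 8.70 at 12 h (1.01 ± 0.095, adjusted p = 3.2e-05). Cldn1, Itgae and Cd7 kept their calls under all 17 alternatives tried. Dpp4, Itgax, Rtn4rl1 and Kmo lost theirs without the replicate block, with adjusted p of 0.178, 0.02, 0.0232 and 0.152. Gna14 lost its call without MPP 24 h replicate 1 and with only the 6 arrays, and Cd96 without MPP 12 h replicate 3, where the left-out changes were 0.99 each. Rtn4rl1 and Kmo also lost theirs in 4 and 3 of the 9 fits with a replicate left out, with changes of 0.94 to 1.19 and of 0.94 to 1.07.

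**Figure D2:**
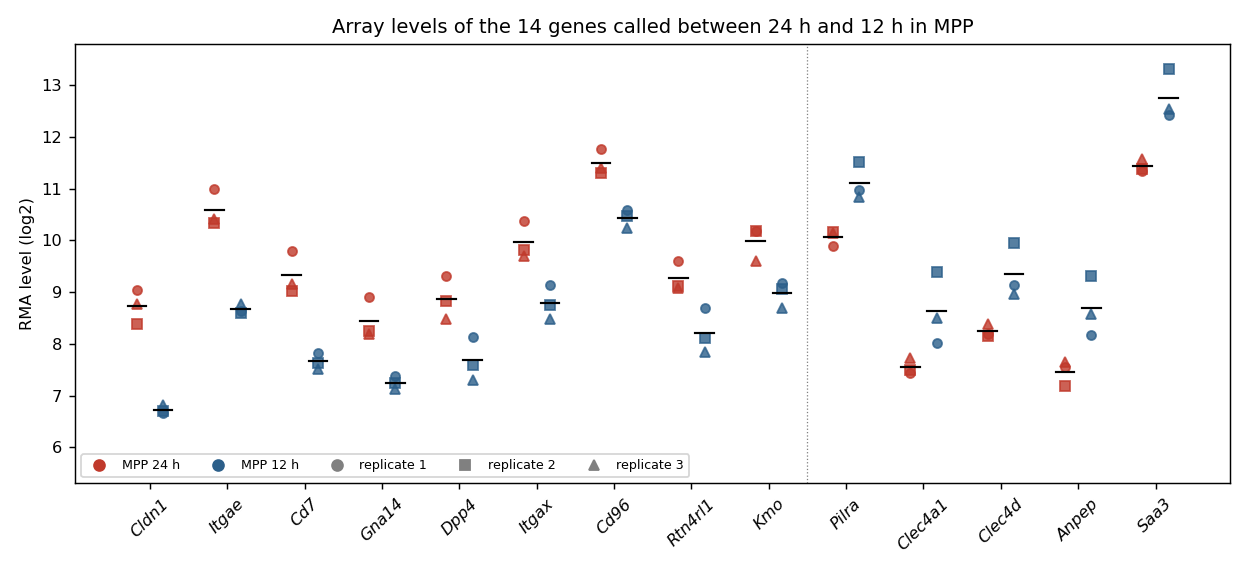
RMA levels (log2, y axis) of the 14 called genes on the 3 MPP arrays at 24 h (red, left of each pair) and the 3 at 12 h (blue), with replicates by symbol and group means as bars. The red and blue points do not overlap in any gene, and MPP 12 h replicate 2 (blue square) is the highest point in all 5 falling genes on the right.

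Other genes rose by less at an adjusted p under 0.01, with few of them from any single list. Il6, the cytokine interleukin 6, had 8.79, 8.43 and 8.89 at 24 h, against 7.90, 7.72 and 7.72 at 12 h (0.92 ± 0.12, adjusted p = 0.000858). It was the single riser among 28 chemokine and cytokine genes, of which Ccl9 and Tnfsf9, the ligand of CD137, fell. Tnfsf9 changed by −0.42 (adjusted p = 0.00539) and lost the test in 7 of the 9 fits with a replicate left out. Siglech, a sialic acid-binding lectin of plasmacytoid dendritic cells, rose by 0.84 ± 0.13 (adjusted p = 0.00225), the only one of 14 genes of those cells to pass. Of these 14 genes 12 had a negative change, with a median of −0.03. Siglech lost the test in 4 of the 9 fits with a replicate left out. Of 22 mast cell and basophil genes 3 rose and 1 fell, against 0.396% and 0.542% of all genes, with a median of −0.02. Hpgds, which makes prostaglandin D2, rose by 0.72 ± 0.071 (adjusted p = 4.77e-05), and Slc18a2, the vesicular monoamine transporter, by 0.66 ± 0.049 (adjusted p = 3.11e-06). Cpa3, the mast cell carboxypeptidase, rose by 0.58 ± 0.10 (adjusted p = 0.00653), and Prss34, a serine protease of the same cells, fell by 0.49 on the log2 scale (adjusted p = 0.00319). Cpa3 and Prss34 lost the test in 8 and 7 of the 9 fits with a replicate left out. Mcpt2, a mast cell protease, had the fourth largest positive change, 1.40 ± 0.29, without a call (adjusted p = 0.0181). Its levels were 10.41, 9.79 and 9.19 at 24 h, against 9.70, 8.89 and 6.59 at 12 h, so the groups overlapped, although each pair moved up. MPP 12 h replicate 3 was far below the others for Mcpt2, and without it the change was 1.06 (adjusted p = 0.0871). Chad, which encodes the matrix protein chondroadherin, rose by 0.54 ± 0.062 (adjusted p = 0.000218) at a high level of 12.0 at 24 h, against 11.5 at 12 h. Gclc, the catalytic subunit of the first step of glutathione synthesis, rose by 0.40 ± 0.043 (adjusted p = 0.000114). Tdrd5, a tudor domain gene known from male germ cells, was chosen after its values were seen, for an adjusted p of 2.68e-07 like that of Dpp4. It had 8.41, 8.34 and 8.29 at 24 h, against 7.52, 7.42 and 7.49 at 12 h (0.87 ± 0.051).

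The 5 called falls were genes of the acute phase and of myeloid surface receptors. Saa3, a serum amyloid A protein made in inflammation, had 11.33, 11.39 and 11.58 at 24 h, against 12.43, 13.31 and 12.54 at 12 h. The change was −1.33 ± 0.17, a 2.51-fold fall (adjusted p = 0.000475), and it was −1.11 (adjusted p = 0.00258) without MPP 12 h replicate 2, though the call was lost in 6 of 17 alternatives. Anpep, the surface aminopeptidase CD13, had 7.55, 7.18 and 7.65 at 24 h, against 8.16, 9.32 and 8.58 at 12 h (−1.23 ± 0.23, adjusted p = 0.00916). The C-type lectin genes Clec4d and Clec4a1 fell by 1.11 and 1.08 on the log2 scale (adjusted p = 0.00937 and 0.00534). Clec4d had 8.19, 8.16 and 8.38 at 24 h, against 9.13, 9.96 and 8.97 at 12 h. Pilra, an inhibitory receptor of myeloid cells, had 9.90, 10.17 and 10.14 at 24 h, against 10.97, 11.51 and 10.84 at 12 h (−1.04 ± 0.15, adjusted p = 0.00183). In each of these genes MPP 12 h replicate 2 was the highest of the 6 arrays. Without it Anpep was at −0.83, Clec4d at −0.81, Clec4a1 at −0.79 and Pilra at −0.90, none of them called, with adjusted p of 0.0175, 0.0402, 0.0179 and 0.0132. None of the 5 falls, Saa3 included, was called without the replicate block, without replicate 1, without replicate 2 or with only the 6 arrays. Saa3, Clec4a1, Clec4d and Anpep were also lost with all 36 arrays, and Clec4d and Anpep once arrays were centred on their medians. Over the 17 alternatives Anpep lost its call in 14, Clec4d in 13, Clec4a1 in 11 and Pilra in 9.

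Of 16 C-type lectin and Cd300 receptor genes, which sit mainly on myeloid cells, 4 fell at an adjusted p under 0.01 and none rose. Of all genes tested 0.542% fell and 0.396% rose at that threshold. A negative change was seen in 14 of the 16, against 9842 of the 19938 genes tested (median −0.16, against 0.00 for all genes). Clec4a3 changed by −0.79 ± 0.094 (adjusted p = 0.000272) and Cd300ld by −0.66 ± 0.10 (adjusted p = 0.00366), besides Clec4d and Clec4a1. The Clec4 genes are close relatives, and whether their probes cross-hybridise was not tested. Clec7a changed by −0.05 and Clec12a by −0.07, and neither passed the test. Without MPP 12 h replicate 2 the median of the list was −0.12, and of these 4 genes Clec4a3 alone still passed (adjusted p = 0.00292), with Cd300ld at an adjusted p of 0.0163. Of 23 monocyte and macrophage genes 2 fell and 17 had a negative change, with a median of −0.19 with or without that array. Adgre1, the macrophage marker F4/80, had 9.84, 10.12 and 10.11 at 24 h, against 10.28, 10.89 and 10.64 at 12 h (−0.58 ± 0.079, adjusted p = 0.00106). F13a1, a coagulation factor of monocytes, changed by −0.48 ± 0.062 (adjusted p = 0.000617). The levels of the groups overlapped in F13a1 and in Clec4a3. Without the replicate block the adjusted p in limma was 0.499 for F13a1, 0.405 for Clec4a3, 0.391 for Cd300ld and 0.172 for Adgre1. Fn1, the matrix protein fibronectin, fell by 0.61 on the log2 scale (adjusted p = 0.00348), against the direction of Itgae and Chad among the 20 TGF-β matrix and adhesion targets. The Fn1 levels of the groups overlapped, and Fn1 lost the test in 6 of the 9 fits with a replicate left out. Without the replicate block its adjusted p was 0.552. In bulk samples, fewer cells of a type and less RNA per cell cannot be told apart.

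Outside these calls the largest falls that passed the test were those of Adam8, a surface metalloprotease, and Tgm2, transglutaminase 2, at −0.93 each. Adam8 had 7.73, 7.90 and 8.02 at 24 h, against 8.60, 8.92 and 8.91 at 12 h (adjusted p = 7.59e-05). Without MPP 12 h replicate 2 the change of Adam8 was −0.93, while that of Tgm2 was −0.80 and no longer passed (adjusted p = 0.0285). Tgm2 lost the test in 7 of the 9 fits with a replicate left out. Wfdc17 changed by −0.89 ± 0.11 and C3ar1, the receptor of the complement fragment C3a, by −0.82 ± 0.078 (adjusted p = 0.000396 and 3.74e-05). Without the replicate block neither passed (adjusted p = 0.0668 and 0.273 in limma). Ccl9, a chemokine of the CC family, was tight in both groups, with 10.73, 10.90 and 10.83 at 24 h and 11.49, 11.56 and 11.49 at 12 h. Its fall of 0.69 on the log2 scale (adjusted p = 2.12e-06) also passed without the block (adjusted p = 9.34e-06). Hmox1, heme oxygenase 1, changed by −0.72 ± 0.13 (adjusted p = 0.00688) and lost the test without MPP 12 h replicate 2, at −0.60.

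Genes of inflammation were highest on 1 array at 12 h, and the other 12 h arrays were mostly above those at 24 h too. Acod1, which makes itaconate in activated macrophages, had 10.36, 9.50 and 9.97 at 24 h, against 11.51, 12.93 and 10.89 at 12 h. Il1b, interleukin 1 beta, had 7.63, 7.14 and 7.15 at 24 h, against 8.48, 10.54 and 7.80 at 12 h, and Il1a had 6.44, 6.10 and 6.18, against 7.39, 9.81 and 6.22. MPP 12 h replicate 2 was the highest array each time. In Acod1 and Il1b the other 12 h arrays lay between it and the 24 h arrays, while in Il1a replicate 3 at 12 h lay among the 24 h arrays. The changes were −1.84 ± 0.55 for Acod1, −1.63 ± 0.58 for Il1b and −1.56 ± 0.65 for Il1a, and none passed (adjusted p = 0.0937, 0.166 and 0.236). Without MPP 12 h replicate 2 they were −1.17, −0.81 and −0.46. Tnf (−1.16), Ccl3 (−1.21) and Cxcl10 (−1.34) likewise did not pass, and changed to −0.67, −0.77 and −0.60. Of 17 NF-κB targets none was called, 16 had a negative change and the median was −0.54. Without that array 15 had a negative change and the median was −0.27. Their mean level on MPP 12 h replicate 2 was 10.61, against 9.44 to 9.61 at 24 h and 9.85 to 9.92 on the other 12 h arrays. For 21 interferon-stimulated genes, none of which passed the test, the median was −0.17 and turned to 0.02 without that array. What set this array apart was not tested.

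**Figure D3:**
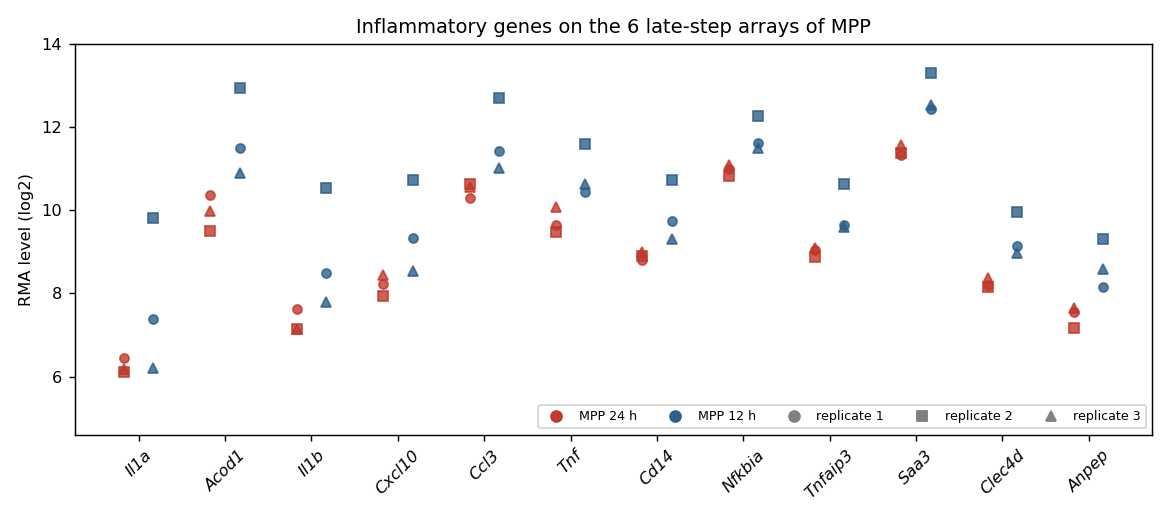
RMA levels (log2, y axis) of 12 inflammatory and falling genes on the MPP arrays at 24 h (red, left) and 12 h (blue), with replicates by symbol. The blue square, MPP 12 h replicate 2, is the highest point in every gene, and only in Il1a do the groups overlap.

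Transcription factors of the immediate early response are induced within minutes of a stimulus, and 3 of them fell. Of 18 such genes 17 had a negative change (median −0.20), against 9842 of the 19938 genes tested. Jun, Jund and Atf3 passed the test, as did 0.542% of all genes in that direction. Jun had 10.14, 10.20 and 10.21 at 24 h, against 10.61, 10.68 and 10.68 at 12 h (−0.47 ± 0.072, adjusted p = 0.00289), with the arrays of each group close together. Jund, another AP-1 subunit, changed by −0.39 ± 0.063 and Atf3, a stress-induced factor of the ATF family, by −0.57 ± 0.094 (adjusted p = 0.00373 and 0.00461). Jun, Jund and Atf3 lost the test in 7, 7 and 6 of the 9 fits with a replicate left out. Without MPP 12 h replicate 2 the median of the list was −0.13.

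The genes of the TGF-β pathway itself gave no call in this step, and 1 passed with the adjusted p alone. None of 17 feedback inhibitors passed the test, with changes between −0.14 and 0.21 and a median of 0.03. Smad7 had 10.49, 10.22 and 10.49 at 24 h, against 10.29, 10.03 and 10.24 at 12 h (0.21 ± 0.095, adjusted p = 0.271), and Pmepa1 changed by −0.03 ± 0.12 (adjusted p = 0.949). None of 19 receptor and Smad genes passed (median 0.04, from −0.24 to 0.24). Of 21 ligands and activators only Tgfb3, 1 of the TGF-β ligands, rose, by 0.50 ± 0.055 (adjusted p = 0.000159). It was at 7.57, 7.56 and 7.45 at 24 h and at 6.96, 7.07 and 7.07 at 12 h, near the low end of the scale. No gene of the 15 of the Notch pathway, the 12 Ras-MAPK feedback genes or the 10 Id and Hes repressors passed.

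Cell cycle and metabolic genes gave no call in the lists below. Among 29 genes of G2 and mitosis, 28 had a positive change and none passed the test, with a median of 0.10. Over all genes tested 10096 of 19938 changes were positive. Mki67 was at 13.16, 13.21 and 13.12 at 24 h and at 13.08, 13.11 and 12.996 at 12 h, a change of 0.10 ± 0.048 (adjusted p = 0.311). Among 29 S phase genes 21 were positive (median 0.06). Of 27 ribosome biogenesis genes 24 were positive (median 0.06), with Utp20 at 0.27 ± 0.051 the single one to pass (adjusted p = 0.00937). Glycolysis genes had negative changes in 13 of 15 cases (median −0.17), and Aldoc, an aldolase, passed at −0.58 ± 0.10 (adjusted p = 0.00533). Utp20 and Aldoc lost the test in 8 and 7 of the 9 fits with a replicate left out. Hypoxia targets were negative in 16 of 18 cases (median −0.18) with none past the test. With arrays centred on their medians, the median was 0.13 for G2 and mitosis genes and −0.14 for glycolysis genes.

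Genes of other blood cells gave few calls. No gene passed among 23 stem and multipotent progenitor, 21 neutrophil granule, 11 erythroid, 14 megakaryocyte, 13 B cell and 8 eosinophil genes, and their medians lay between −0.02 and 0.07. Of 19 cytokine receptors of progenitors Csf3r, the G-CSF receptor, fell by 0.22 on the log2 scale (adjusted p = 0.00559), and it lost the test in 9 of the 9 fits with a replicate left out. Of 22 T and NK cell genes Cd96 was the one that passed (median −0.03). Of 11 Langerhans cell genes Cldn1 and Cdh1 rose, with a median of 0.03, and of 22 conventional dendritic cell genes 3 rose, with a median of −0.03. The MHC class II gene H2-Aa had 8.37, 7.54 and 7.80 at 24 h, against 6.90, 7.50 and 6.39 at 12 h (0.97 ± 0.27, adjusted p = 0.0692). Over all 44 lists, 32 of 752 distinct genes passed with the adjusted p alone, against 0.938% of all genes tested. The lists were chosen with earlier results of these data known, so these counts are a description.

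The late genes were followed back to 8 h against 0 h, a comparison of other arrays from the same fit. The 2 tests share each gene's error estimate, so a gene with a small error passes both more easily, and the shares below are a description. Of the 79 genes higher at 24 h, 31 had already risen by 8 h (39.2%) and 6 had fallen, at an adjusted p under 0.01, where 5.46% of all genes rose and 3.71% fell by 8 h. Of the 108 genes lower at 24 h, 32 had fallen by 8 h (29.6%) and 23 had risen (21.3%). The remaining 42 and 53 had not passed the test by 8 h. Cldn1 was flat through the early course, with group means of 6.75, 6.70, 6.70, 6.84, 6.72 and 8.73 at 0, 2, 4, 8, 12 and 24 h, and so was Cd7, with 7.57, 7.66, 7.52, 7.58, 7.66 and 9.33. Itgae climbed from 4 h on, with means of 7.11, 7.45, 7.33, 7.99, 8.67 and 10.58. Of the called rises Cd96 had the largest rise by 8 h, with means of 7.95, 8.22, 8.49, 9.65, 10.44 and 11.50. Kmo went the other way at first, and fell by 0.41 on the log2 scale between 0 and 8 h (adjusted p = 0.00689). Clec4a1 had a lower mean at each time than at the one before, through 11.24, 10.39, 9.50, 8.90, 8.64 and 7.56. Cav1, which encodes caveolin 1, was 1.33 higher at 8 h than at 0 h (adjusted p = 1.21e-05) and fell by 0.84 on the log2 scale in the late step (adjusted p = 0.00653). Without MPP 12 h replicate 2 that fall was −0.61 and did not pass (adjusted p = 0.0243), and the test was lost in 8 of the 9 fits with a replicate left out.

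**Figure D4:**
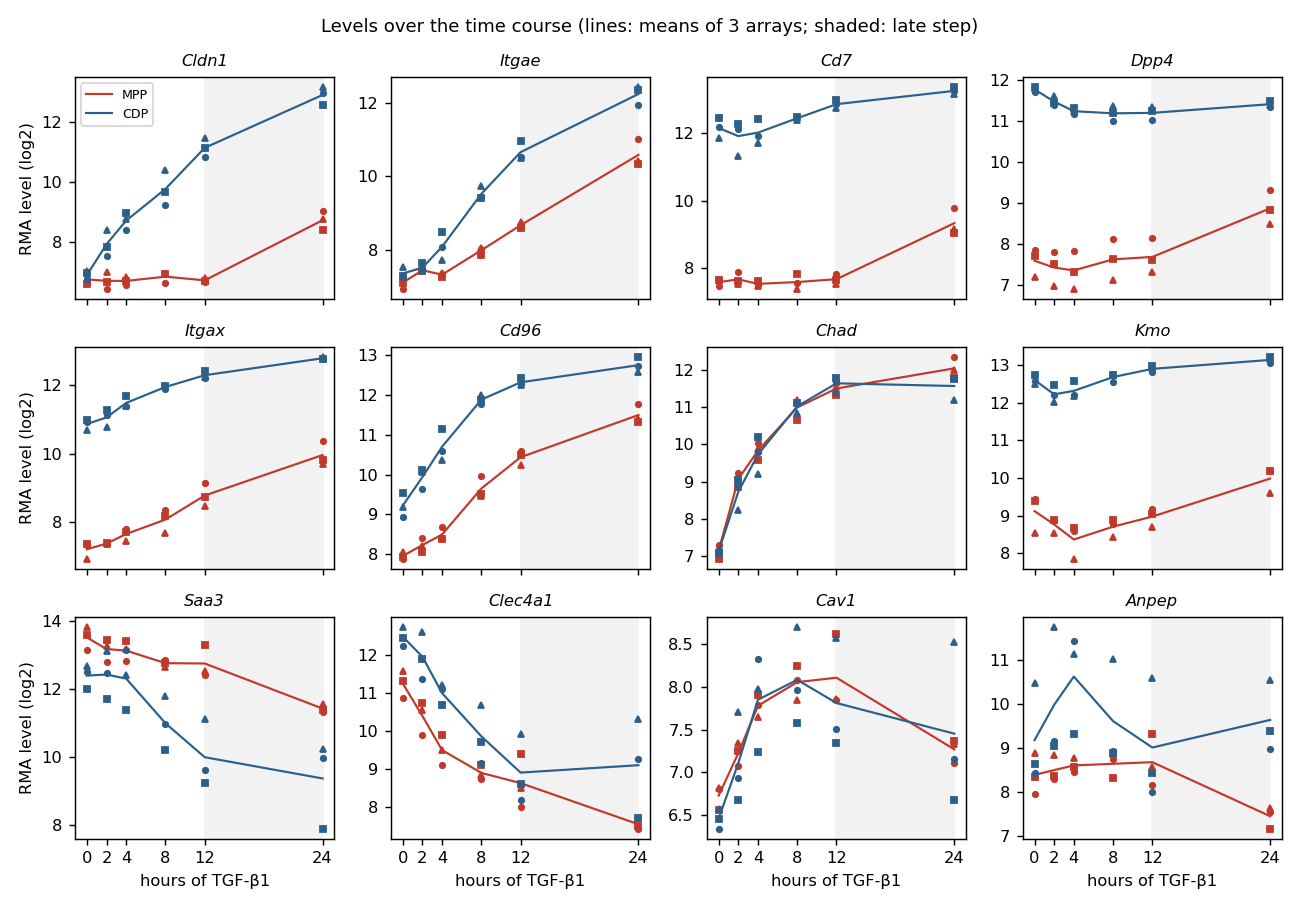
RMA levels (log2, y axis) of 12 late genes against hours of TGF-β1 (x axis) in MPP (red) and CDP (blue), with points for the 3 arrays of a time and lines through their means. The shaded span is the late step, where in MPP the means of Cldn1 and Cd7 leave a flat course and those of Cav1 and Anpep drop.

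The late step was then set against the MPP step between 2 and 8 h, in 1 fit with the difference of the steps as the contrast. In 29 genes (0.145%) the steps differed, 14 with a more positive late step (0.0702%) and 15 with a more negative one (0.0752%). Cldn1 changed by 2.01 in the late step and by 0.14 between 2 and 8 h, a difference of 1.87 ± 0.19 (adjusted p = 5.53e-05), and Cd7 by 1.67 and −0.08 (1.75 ± 0.20, adjusted p = 0.000157). Itgae changed by 1.91 and 0.54 (1.37 ± 0.17, adjusted p = 0.000276). Vcan, the matrix proteoglycan versican, changed by −0.75 in the late step and by −2.56 between 2 and 8 h, and Cth, an enzyme of cysteine synthesis, by 0.16 and −1.17. On the other side, Chad rose by 0.54 in the late step and by 1.92 between 2 and 8 h (−1.38 ± 0.087, adjusted p = 1.8e-06), and the receptor kinase gene Axl changed by 0.27 and 1.68 (−1.41 ± 0.13, adjusted p = 2.66e-05). Rasgrp3, an activator of Ras, changed by 0.11 and 1.78. In these 3 genes the earlier step was the larger.

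Several of the late rises in MPP were genes whose level was already higher in CDP. Before TGF-β1, 6 of the 9 called rises were lower in MPP than in CDP at an adjusted p under 0.01, and none was higher, while 6.17% of all genes were lower and 7.91% higher in MPP. At 0 h Cd7 averaged 7.57 in MPP and 12.16 in CDP (difference −4.59 ± 0.20), Dpp4 7.58 and 11.78 (−4.20 ± 0.24), Itgax 7.22 and 10.87 (−3.65 ± 0.17), and Kmo 9.12 and 12.60 (−3.48 ± 0.21). Rtn4rl1 and Cd96 differed by −2.60 ± 0.22 and −1.27 ± 0.18. At 24 h the means of these 6 genes were still below those of CDP, with Cd7 at 9.33 in MPP and 13.27 in CDP. Cldn1, Itgae and Gna14 did not differ at 0 h beyond the test (adjusted p = 0.730, 0.325 and 0.928). Over the larger groups, 30.4% of the 79 late rises and 14.8% of the 108 late falls were lower in MPP than in CDP at 0 h, and 17.7% and 28.7% were higher. This comparison was added after the values had been seen and has no replicate block.

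The late step of MPP was compared with that of CDP by the difference of the changes. In 74 genes (0.371%) it differed, 38 with a more positive change in MPP (0.191%) and 36 with a more negative one (0.181%). In CDP itself 101 genes were called between 24 h and 12 h (0.507%), and 7.89% of all genes passed with the adjusted p alone. Of the 9 called rises only Cd7 differed by 1 or more, with 1.67 ± 0.15 in MPP and 0.40 ± 0.15 in CDP (difference 1.27 ± 0.21, adjusted p = 0.000392). Dpp4 changed by 1.19 ± 0.068 in MPP and by 0.21 ± 0.068 in CDP (0.98 ± 0.10, adjusted p = 3.24e-07), and Kmo by 1.01 and 0.24 (0.77 ± 0.13, adjusted p = 0.000371). Cldn1 rose in both, by 2.01 ± 0.17 and 1.77 ± 0.17 (0.24 ± 0.24, adjusted p = 0.668), and so did Itgae, by 1.91 and 1.58 (0.33 ± 0.22, adjusted p = 0.443). Their levels still differed at 24 h, with Cldn1 at 8.73 in MPP and 12.92 in CDP.

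In each of the 16 called genes with the most positive or most negative difference the change was larger in size in CDP than in MPP. Kit changed by −0.11 ± 0.20 in MPP and 1.86 ± 0.20 in CDP (difference −1.98 ± 0.28, adjusted p = 6.15e-05). Alox5, the 5-lipoxygenase of leukotriene synthesis, changed by −0.01 ± 0.15 and 2.00 ± 0.15, and the adhesion gene Epcam by 0.03 ± 0.081 and 1.61 ± 0.081. In the other direction the chemokine receptor gene Cxcr2 changed by −0.03 ± 0.21 in MPP and −1.69 ± 0.21 in CDP, the tetraspanin gene Cd81 by −0.16 ± 0.084 and −1.71 ± 0.084, and Mmp8, the neutrophil collagenase, by −0.70 ± 0.19 and −2.64 ± 0.19. Fn1 changed in the same direction in both, by −0.61 ± 0.11 in MPP and −2.06 ± 0.11 in CDP (1.45 ± 0.16, adjusted p = 1.84e-06). Cmah, an enzyme of sialic acid hydroxylation, changed by 0.36 ± 0.12 in MPP and −1.32 ± 0.12 in CDP.

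**Figure D5:**
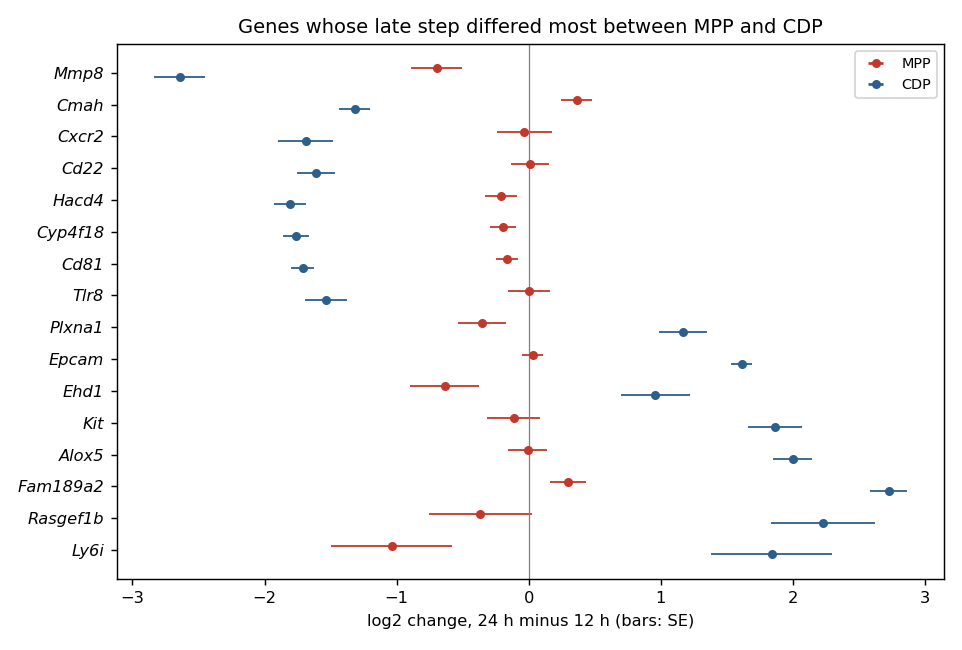
Log2 change from 12 to 24 h (x axis, 24 h minus 12 h, bars are SE) in MPP (red, upper point) and CDP (blue, lower point) for the 8 called genes with the most positive and the 8 with the most negative difference. Most red points lie near 0 and most blue points beyond 1 on either side.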

How the data were processed

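Total RNA of 36 samples was hybridised to Affymetrix Mouse Gene 1.0 ST arrays. The deposited values are log2 intensities for 35556 probe sets, made by the authors with Affymetrix Power Tools and RMA per the processing notes, with versions not given in the sources used here. RMA sets all arrays to 1 distribution, so a change is read against the rest of the array, and that of a dim gene is compressed. The number of arrays limits the precision. The protocol label names 6 h where titles and the study's methods give 8 h, and 8 h is used. The labels and the study's methods name different RNA extraction kits.

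Of the probe sets, 21789 had 1 gene symbol in the platform annotation, 1621 several and 12146 none. For each of 19938 symbols the probe set with the highest mean over the 36 arrays was kept, which affected 999 genes with more than 1. Groups were taken from the labels. limma 3.58.1 (R 4.3.3) was fitted to the 18 MPP arrays with a term per time and the replicate number as a block, the factors that the study's methods name for limma (the study used FARMS values, contrasts against 0 h and interaction effects, which were not used here), and p-values were adjusted by Benjamini-Hochberg over all genes. The difference from CDP was fitted on 36 arrays with a block within each cell type. A call needs an adjusted p under 0.01 and a log2 change of at least 1. Deviations of same-numbered arrays at 12 and 24 h correlated at 0.537, 0.296 and 0.324 (0.373, 0.244 and 0.292 without sex-linked transcripts, in which replicate 1 stood apart), and within MPP none was under 0.189 at any pair of times, so the numbers were taken to pair the samples. No 2 arrays held identical values.

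The text names the largest 15 rises and falls among calls that went 1 way in 3 of 3 pairs, filled to 10 a direction with genes at the adjusted p alone, the members of each list that passed (at most 4 beyond the calls), the 8 largest each way in the 2 difference contrasts, and defining markers. Other genes were named after their values were seen. The members and lists were chosen with earlier results of these data known. Alternatives were no block, other variance settings, a 1.5-fold treat test, array centring, a level filter of 7, averaged probe sets, other array sets and replicates left out. The fit was tested on simulated data. Promoters and positions are RefSeq GRCm38.p6, of which 15614 matched by symbol.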

Additional observations from a re-analysis of the deposited data

Results flagged for a closer look

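The genes below were picked out because the difference itself passed the test, either the late step of MPP minus that of CDP or the late step of MPP minus its step from 2 to 8 h. No explanation was tested for any of them.

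For MPP minus CDP the difference was positive in Mmp8 (1.95), Cmah (1.68), Cxcr2 (1.66), Cd22 (1.62), Hacd4 (1.60), Cyp4f18 (1.56), Cd81 (1.55), Tlr8 (1.54), Fn1 (1.45) and Cd7 (1.27). It was negative in Ly6i (−2.88), Rasgef1b (−2.59), Fam189a2 (−2.43), Alox5 (−2.01), Kit (−1.98), Ehd1 (−1.60), Epcam (−1.58) and Plxna1 (−1.52). The calls of Ly6i, Rasgef1b and Ehd1 were lost in 12, 9 and 14 of 20 alternatives, MPP 12 h replicate 2 left out among them in each, while those of Fam189a2, Alox5, Epcam, Cd22, Cd81, Cyp4f18, Hacd4 and Mmp8 were lost in none. That of Kit was lost without replicate 1.

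For the late step minus the step from 2 to 8 h the difference was positive in Cldn1 (1.87), Vcan (1.81), Cd7 (1.75), Serpinb10 (1.73), Itgae (1.37), Cth (1.33), Ms4a4a (1.31), Gm9733 (1.16) and Kmo (1.07). It was negative in Cav1 (−1.68), Rasgrp3 (−1.68), Axl (−1.41), Chad (−1.38), Cd101 (−1.34), Cxcr3 (−1.31), Slc39a4 (−1.30) and Cyp4f18 (−1.30). Serpinb10, Ms4a4a and Gm9733 changed by −0.03, 0.03 and 0.06 in the late step, after −1.76, −1.28 and −1.11 between 2 and 8 h. Cd101, Cxcr3, Slc39a4 and Cyp4f18 changed by −0.07, −0.34, −0.40 and −0.20, after 1.27, 0.97, 0.90 and 1.10 between 2 and 8 h. The calls of Serpinb10, Slc39a4 and Gm9733 were lost in 14, 10 and 5 of 20 alternatives, and those of Cldn1, Cd7, Cth and Cd101 in none.

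Outside the genes with a symbol, probe set 10350806, which has none in the annotation used here, rose by 1.77 ± 0.14 in the late step (adjusted p = 0.00038 in limma), with means of 8.23 at 24 h and 6.46 at 12 h. It was the only call among 12146 probe sets without a symbol, and none was made among 1621 with several.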

How the results depend on the processing

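Without the replicate block the late step of MPP had 5 calls in place of 14, all of them higher at 24 h, and 23 in place of 187 with the adjusted p alone. With only the 6 arrays of 12 and 24 h there were 8 and 17, which leaves fewer residual degrees of freedom. With all 36 arrays 83 genes passed with the adjusted p alone, and limma's treat test against a fold of 1.5 made 4 calls. With replicates left out the counts ran from 8 to 18 calls and from 21 to 146 with the adjusted p alone, the lowest without replicate 1 or 2 and the highest without replicate 3. Leaving out MPP 24 h replicate 1 gave 9 and 73, and MPP 12 h replicate 2 gave 9 and 69. The share of higher calls moved with array centring, from 9 of 14 to 9 of 12 calls, and with the adjusted p alone from 79 higher and 108 lower to 91 higher and 72 lower. Of 43 named genes that passed and were refitted, 24 lost the test or call when 1 array was left out. The 8 that kept it in every fit with a replicate left out were Cldn1, Itgae, Cd7, Dpp4, Itgax, Hpgds, Slc18a2 and Ccl9. The difference between MPP and CDP had 41 calls without the replicate block in place of 74, and 38 to 131 with replicates left out, the highest without CDP 24 h replicate 2 and the lowest without replicate 1. The difference from the step between 2 and 8 h had 13 calls without the block in place of 29, and 13 to 43 with replicates left out, the lowest without replicate 1. With arrays centred it had 17 higher and 11 lower, against 14 and 15. None of the 43 changed sign in the late step under any alternative tried. The cause of these changes was not tested.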
